A study of Homo sapiens with 2 samples.

Results

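A set of 10 matricellular genes was followed in G401 cells, a human line of renal rhabdoid tumor origin, after CRISPR targeting of the homeobox gene HOXB13. The genes were chosen by name: the thrombospondins THBS1, THBS2 and THBS3, SPARC and its relative SPOCK1, tenascin C (TNC), periostin (POSTN), osteopontin (SPP1), and the CCN proteins CTGF and CYR61. These 10 genes and the gene lists below were chosen with earlier results of these data known. All 10 were found among 23456 gene symbols, each on 1 row with a value in both libraries. The data held 1 library of G401 cells with a control guide and 1 of G401 cells with the guide sg1 against HOXB13. Both cultures were labelled as grown in RPMI with 15% serum and collected at 80% confluency. The sources used here do not say if the guide cells were a pool or 1 clone, nor where the guide cuts. Since each group was a single library, the spread between cultures is unknown and no test of a difference was possible. Control and sg1 cells below mean these 2 libraries.

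Matricellular proteins are secreted into the extracellular matrix but act mainly as signals and adapters there, binding integrins, syndecans, proteases and growth factors rather than bearing load. They are best known from wound repair, development and tumor stroma. Several of them, CTGF and CYR61 above all, are transcribed in response to serum, cell spreading and the coactivators YAP and TAZ, which act through TEAD factors.

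The members differed in direction between the libraries. SPP1 was lower in sg1 cells, SPARC and THBS1 were higher, CTGF and CYR61 stayed within 1.5-fold, and TNC, POSTN, SPOCK1 and THBS2 were below 1 FPKM in both. FPKM is the number of sequenced fragments scaled by transcript length and by library size, so levels can be set side by side between genes. A gene is called tested here when it reached 1 FPKM in either library. Ratios are on the log2(FPKM + 1) scale, sg1 cells over control cells, and a gene is called higher or lower from 2-fold on, which sets a size and says nothing of significance. Of the 10 members 6 were tested, 2 were higher and 1 was lower by this rule. Among all 11970 tested genes 4.25% were higher and 4.51% lower by the same rule, and the median log2 ratio was −0.05. Because earlier results were known when the members and lists were chosen, counts beside these shares, here and below, are descriptions only.

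**Figure D1:**
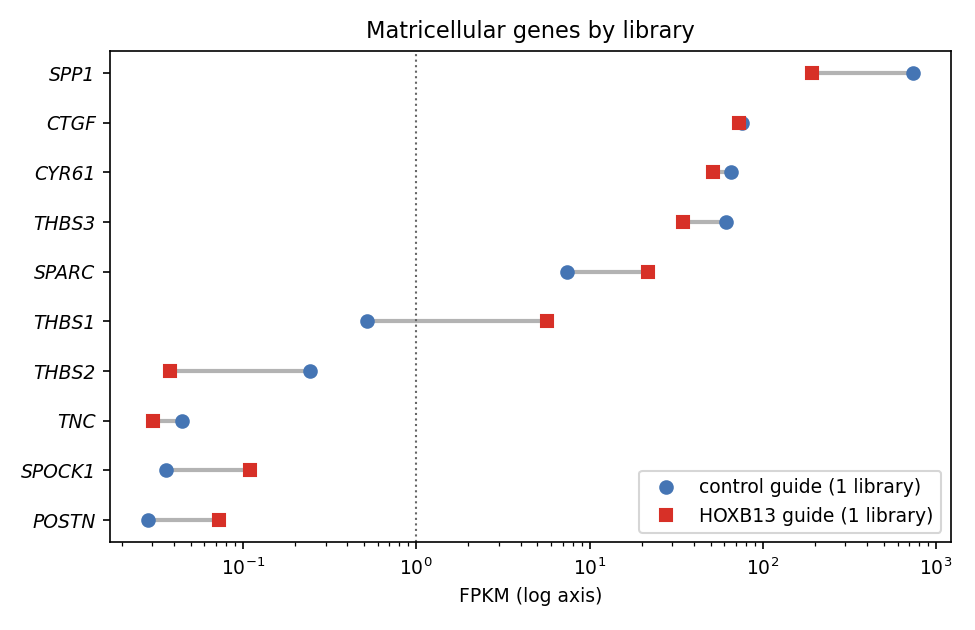
FPKM of the 10 matricellular genes (log axis) in the control-guide library (circles) and the sg1 library (squares), 1 library each, ordered by the control level; the dotted line marks 1 FPKM. SPP1 lies to the left of its control value, at 191 against 731 FPKM, SPARC and THBS1 lie to the right of theirs, and the CTGF symbols overlap.

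HOXB13 itself was measured at 14.6 FPKM in control cells and 4.50 in sg1 cells. SMARCB1, whose loss marks rhabdoid tumors, had 0.113 and 0.0577 FPKM. Of 8 endothelial markers none reached 1 FPKM, and their summed level was 0.226 FPKM in control cells and 0.318 in sg1 cells, with CDH5, KDR and TEK at 0 in both. Of 8 leukocyte markers only CD68, a lysosomal protein, was tested (102 and 111 FPKM), and CD3E was at 0 in both. The 8 fibroblast markers summed to 35.6 and 70.4 FPKM, with 4 tested and THY1 at least 2-fold higher, while DCN, LUM and FAP were at 0 in both. COL1A1, COL1A2 and PDGFRB had 21.4, 0.607 and 11.6 FPKM in control cells. In sg1 cells they had 42.4, 2.02 and 20.4, each short of 2-fold on the log2(FPKM + 1) scale. The 8 kidney epithelial markers summed to 41.3 and 7.15 FPKM, with EPCAM and CDH1 tested, CDH1 lower at 32.3 and 1.28 FPKM, and CDH16 and UMOD at 0 in both. The part of these 2 shifts in the differences below was not tested. In such bulk RNA, fewer cells that express a gene and less RNA per cell cannot be told apart.

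The promoters of the 3 members past 2-fold are shown with that of CTGF, which differed least among the tested members, so that the sequence next to each gene start can be read beside the RNA levels. RefSeq windows of 300 bases on GRCh38.p14, from 250 bases before the gene start to 50 after it, were found for 8 of the 10 members. CYR61 and SPOCK1 are named only. The sequences run 5′ to 3′ on the strand of the gene, and capitals mark matches, on either strand, to short motifs. The motif of TEAD factors was searched as CATTCC. That of SMAD proteins, which carry TGF-beta signals to the nucleus, was searched as CAGAC. That of SP factors, common in promoters rich in GC, was searched as CCGCCC. The TATA box, where transcription machinery is placed, was searched as TATAAA. The windows lie at chr4:87975464-87975763 on the plus strand for SPP1, chr15:39580829-39581128 on the plus strand for THBS1, chr5:151686866-151687165 on the minus strand for SPARC and chr6:131951323-131951622 on the minus strand for CTGF.
SPP1: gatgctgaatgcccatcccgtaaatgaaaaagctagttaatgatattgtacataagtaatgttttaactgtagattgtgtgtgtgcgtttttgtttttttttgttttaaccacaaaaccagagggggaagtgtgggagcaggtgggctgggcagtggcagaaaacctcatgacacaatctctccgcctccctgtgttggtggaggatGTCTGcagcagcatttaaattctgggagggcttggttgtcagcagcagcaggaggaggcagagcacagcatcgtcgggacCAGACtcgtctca
THBS1: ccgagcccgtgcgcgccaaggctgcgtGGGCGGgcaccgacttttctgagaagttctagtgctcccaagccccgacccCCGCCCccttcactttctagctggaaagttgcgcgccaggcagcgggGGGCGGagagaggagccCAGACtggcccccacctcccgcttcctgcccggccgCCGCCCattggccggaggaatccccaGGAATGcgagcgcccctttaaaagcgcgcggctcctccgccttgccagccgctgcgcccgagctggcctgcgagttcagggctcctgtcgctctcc
SPARC: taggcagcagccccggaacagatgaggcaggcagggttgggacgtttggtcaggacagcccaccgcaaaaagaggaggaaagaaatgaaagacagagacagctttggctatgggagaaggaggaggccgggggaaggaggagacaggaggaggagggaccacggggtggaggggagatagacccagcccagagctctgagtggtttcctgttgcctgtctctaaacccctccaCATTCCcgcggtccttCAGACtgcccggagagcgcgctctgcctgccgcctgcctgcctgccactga
CTGF: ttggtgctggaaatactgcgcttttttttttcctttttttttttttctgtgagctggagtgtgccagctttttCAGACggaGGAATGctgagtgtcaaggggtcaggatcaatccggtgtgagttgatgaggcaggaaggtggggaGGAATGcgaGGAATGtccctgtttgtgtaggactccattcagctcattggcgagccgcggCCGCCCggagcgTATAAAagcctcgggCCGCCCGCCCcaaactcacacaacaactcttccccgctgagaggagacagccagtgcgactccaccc

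The CTGF window held 3 TEAD matches, at 169, 104 and 95 bases before the gene start, and a TATA match 32 bases before it. THBS1 and SPARC held 1 TEAD match each, 46 and 17 bases before the start, and SPP1 held none. Of the windows not printed, that of THBS2, a gene below 1 FPKM in both libraries, held 2 TEAD matches and 1 TATA match. Those of THBS3, TNC and POSTN held no TEAD match, and POSTN held 2 TATA matches. Of all 35116 RefSeq windows of this length, 14% held a TEAD match. THBS1 held 4 SP matches and CTGF 3, of which the last 2 overlap, against none in SPARC and SPP1, and 45% of all windows held at least 1. Each of the 4 windows held a SMAD match, as did 45.3% of all windows, and a TATA match was in 11.5%. The AP-1 motif TGANTCA, in 7.71% of all windows, and the CArG box of SRF, in 1.29%, were in none of the 4. Matches are descriptions of the letters and not binding sites. The GC content was 47.7% for SPP1, 54.3% for CTGF, 61.3% for SPARC and 70.0% for THBS1, with a median of 58.7% over all windows.

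**Figure D2:**
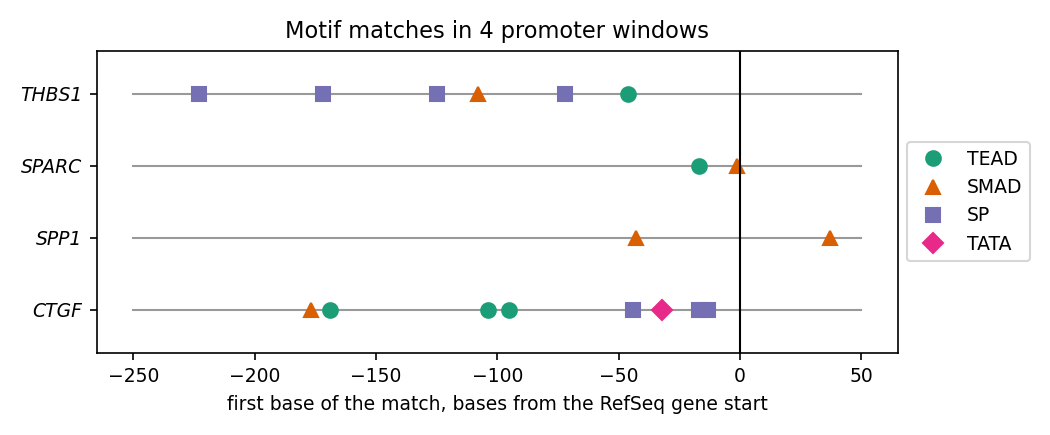
Positions of motif matches in the 4 promoter windows, in bases from the RefSeq gene start (vertical line), with TEAD as circles, SMAD as triangles, SP as squares and TATA as a diamond. CTGF shows 3 TEAD matches, THBS1 and SPARC 1 each, and SPP1 none.

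SPP1, which encodes osteopontin, a secreted phosphoprotein that binds integrins and CD44, was the most abundant member in both libraries. In hg19 it spans bases 88896802 to 88904563 of chromosome 4. Its level was 731 FPKM in control cells and 191 in sg1 cells, a log2 ratio of −1.93 with the pseudocount, or 3.83-fold lower without it. By level it ranked 94th among 23452 symbols in control cells and 353rd in sg1 cells, and by ratio it was the 93rd lowest of the 11970 tested genes. The values stood for about 24207 and 6198 reads, which left the sg1 level between 0.254 and 0.269 of the control (exact 95% interval, counting error only). Read numbers here and below are estimates from a depth of about 24.2 M reads in control cells and 23.7 M in sg1 cells, read from the steps between low FPKM values.

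Because SPP1 outweighed the rest, the summed level of the 10 members followed it. The sum was 943 FPKM in control cells and 377 in sg1 cells, or 0.183% and 0.0720% of all FPKM. SPP1 made up 77.5% of that sum in control cells and 50.7% in sg1 cells. Without SPP1 the other 9 members summed to 212 and 186 FPKM.

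Among the thrombospondins, large calcium-binding glycoproteins that assemble into oligomers, the members did not share a direction. THBS1, which binds CD47 and CD36 and can activate latent TGF-beta, had 0.522 FPKM in control cells and 5.65 in sg1 cells. Its log2 ratio was 2.13, and the level was 10.8-fold higher without the pseudocount, with about 95 and 1012 reads behind the values and an exact 95% interval of 8.81 to 13.6-fold for counting error only. With a pseudocount of 0.1 FPKM the log2 ratio was 3.21. THBS1 reached 1 FPKM in sg1 cells only, so it entered the test through the library where it was high. Its ratio was the 103rd highest of all tested genes. In hg19 it spans bases 39873280 to 39889668 of chromosome 15.

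THBS3, which forms pentamers, was the abundant thrombospondin, at 61.5 FPKM in control cells and 34.8 in sg1 cells (log2 ratio −0.81, 1.77-fold lower without the pseudocount). It did not reach 2-fold, and 7.60% of tested genes had a ratio as low or lower. THBS2, a close relative of THBS1 that inhibits angiogenesis, had 0.245 and 0.0379 FPKM, or about 33 and 5 reads. That is 0.155 of the control level, with an exact 95% interval from 0.0471 to 0.399 for counting error, but both values are under the limit for testing. THBS4, a pentameric relative outside the members, had 2.11 and 0.704 FPKM, and COMP, the cartilage thrombospondin, 0.241 and 0.170. In the summed level of these 5 thrombospondin genes, 64.7 and 41.4 FPKM, THBS1 made up 0.807% in control cells and 13.7% in sg1 cells.

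SPARC, a collagen-binding and calcium-binding glycoprotein also called osteonectin, had 7.41 FPKM in control cells and 21.8 in sg1 cells. The log2 ratio was 1.44, the level was 2.94-fold higher without the pseudocount, and about 625 and 1797 reads gave an exact 95% interval of 2.68 to 3.22-fold for counting error only. This was the 233rd highest ratio of all tested genes. In hg19 SPARC spans bases 151040657 to 151066615 of chromosome 5. FSTL1, a secreted glycoprotein of the SPARC family that was not a member, went the other way, with 29.01 FPKM in control cells and 3.31 in sg1 cells (log2 ratio −2.80). FSTL1 thus stood 3.92-fold above SPARC in the control, and SPARC stood 6.58-fold above FSTL1 in sg1 cells. SPOCK1, a heparan sulfate proteoglycan related to SPARC, had 0.0360 and 0.110 FPKM. Of the other SPARC relatives listed, SPARCL1 had 0.123 and 0.0472 FPKM, SPOCK2 0.175 and 0.166, and SPOCK3 was at 0 in both. SMOC1 and SMOC2 were at 0 in control cells and had 0.0122 and 0.0292 FPKM in sg1 cells.

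The CCN proteins, cysteine-rich secreted proteins that bind integrins and heparan sulfate, differed little. CTGF, the connective tissue growth factor, had 76.3 FPKM in control cells and 72.4 in sg1 cells (log2 ratio −0.07). CYR61, its close relative, had 65.7 and 51.3 FPKM (log2 ratio −0.35). The counting intervals of the sg1 level over the control were 0.907 to 0.993 for CTGF and 0.742 to 0.823 for CYR61, and the spread between replicate cultures is not in them. The intervals also take the deposited scaling as given. With upper-quartile scaling the log2 ratio of CTGF was −0.007. The level of CTGF over CYR61 was 1.16 in control cells and 1.41 in sg1 cells. Of the other CCN genes, NOV and WISP1 were at 0 in both libraries, WISP2 had 0.0693 and 0.601 FPKM, and WISP3 had 0.0803 FPKM in control cells and was listed at 0 in sg1 cells. CTGF and CYR61 were thus the CCN genes above 1 FPKM.

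TNC, an oligomeric glycoprotein that loosens cell adhesion, had 0.0446 FPKM in control cells and 0.0304 in sg1 cells. POSTN, a collagen-binding protein with fasciclin domains, had 0.0285 and 0.0727 FPKM. Low values of this kind rest on a few reads. The ratio between the libraries matched reads of 3 to 2 for TNC, 2 to 5 for POSTN and 1 to 3 for SPOCK1, control first, or multiples of these numbers. The counting intervals rest instead on the estimated reads, which for TNC were about 8 and 5 and so not at 3 to 2. They are approximate for that reason. The interval of the sg1 level over the control ran from 0.164 to 2.21 for TNC and from 0.418 to 26.8 for POSTN. For SPOCK1 it ran from 0.928 to 13.03. No difference was thus detectable for these genes at this depth.

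The 6 tested members kept 1 order of level in both libraries. From high to low this was SPP1, CTGF, CYR61, THBS3, SPARC and THBS1, and without replicates it cannot be said which neighbours in it differ beyond the spread of cultures. The genes with the most similar pair of levels, by distance on log2(FPKM + 1) over the 2 libraries, were ANXA1 (0.591 and 5.43 FPKM), ETV7 and KIF5C for THBS1. For SPARC they were HSPA1A (7.04 and 20.6 FPKM), CHAF1B and DPY19L1. HSPA1A has a near-identical copy, HSPA1B, so its reads are uncertain. For SPP1 they were the noncoding RNA genes GAS5 (657 and 220 FPKM) and ZFAS1, and the mitochondrial chaperone gene HSPA9.

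**Figure D3:**
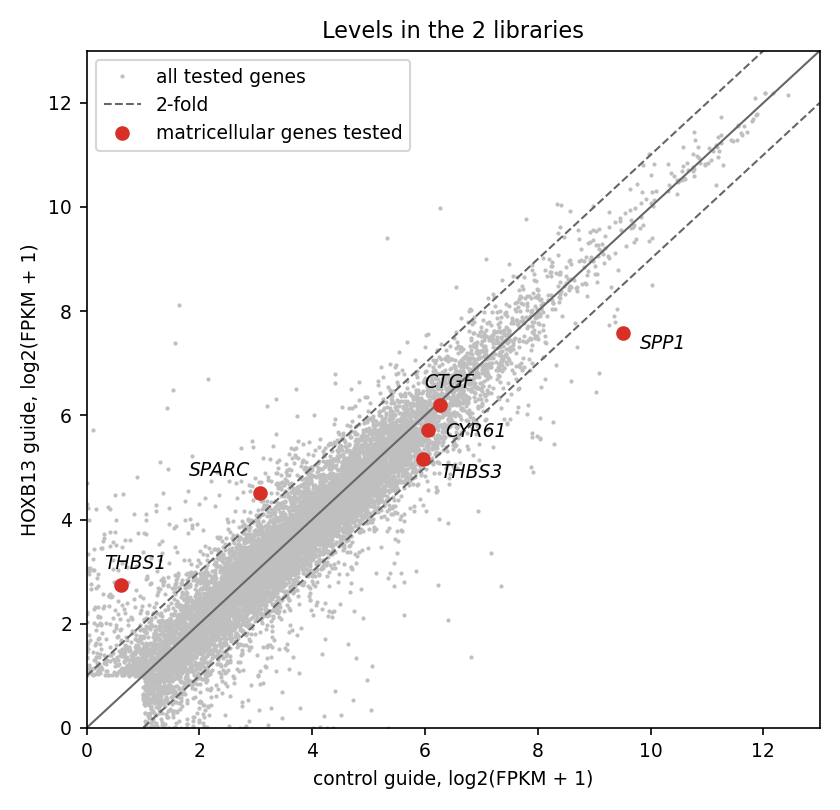
Levels of the 11970 tested genes (grey) and the 6 tested matricellular genes (red) as log2(FPKM + 1) in the control-guide library (x axis) and the sg1 library (y axis), with equal levels as a solid line and 2-fold as dashed lines. SPP1 lies below the lower dashed line, SPARC and THBS1 above the upper one, and CTGF, CYR61 and THBS3 between them.

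The surface proteins that bind the members also went both ways. Of 22 listed receptors 10 were tested, 1 was higher and 1 lower by the 2-fold rule, and the median log2 ratio was −0.16. Among all tested genes 4.25% were higher and 4.51% lower by that rule. Of the integrin subunits that bind osteopontin, thrombospondin and CCN proteins, ITGAV, the alpha-v chain, had 231 FPKM in control cells and 115 in sg1 cells, just short of 2-fold on the scale used. Its partner ITGB1 had 151 and 274 FPKM and ITGB5 13.8 and 12.9, while ITGB3 was at 0 in control cells and had 0.0181 FPKM in sg1 cells. The laminin-binding chain ITGA6 was lower, at 8.75 and 2.61 FPKM. The heparan sulfate proteoglycan SDC1 had 6.46 and 13.5 FPKM. CALR, on the list because it can bind thrombospondin at the cell surface but mainly a chaperone of the endoplasmic reticulum, was higher, at 134 and 513 FPKM. The osteopontin receptor CD44 had 0.0202 and 0.0969 FPKM, and the thrombospondin receptors CD47 and CD36 had 0.0164 and 0.00460 in control cells and 0.00835 and 0.0528 in sg1 cells. CD47 is expressed by most cell types, and whether its value near 0 in both libraries reflects the RNA of these cells or its estimation was not tested. ITGB1, ITGB5, ITGB3, CD44, CD47 and CD36 were named after their values were seen.

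Of 20 family relatives of the members, only FSTL1 and THBS4 were tested, and 8 were at 0 in both libraries. Of 14 further genes listed with the matricellular proteins and reported here, 7 were tested, and their median log2 ratio was 0.07. By the 2-fold rule 2 of these 7 were higher, against 4.25% of all tested genes. HMCN1, which encodes the large fibulin hemicentin, had 0.934 and 4.74 FPKM, and CRIM1, a membrane protein that holds BMP ligands, had 13.7 and 31.0. Like THBS1, HMCN1 reached 1 FPKM in sg1 cells only, so it entered the test through the library where it was high. FBLN1, a fibulin, had 34.2 and 45.7 FPKM, and LGALS3, a galectin that binds sugars on glycoproteins, 193.7 and 146.5.

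Proteases that cut matricellular proteins and their inhibitors had 9 tested genes of 18, of which 4 were higher and 1 lower. Their median log2 ratio was 0.50. For this list and the next, the shares over all tested genes were 4.25% higher and 4.51% lower. ADAMTS1, a metalloprotease that carries thrombospondin repeats, had 5.83 and 22.1 FPKM. The metalloprotease inhibitors TIMP1 and TIMP2 had 21.3 and 21.0 FPKM in control cells and 49.07 and 49.98 in sg1 cells. The fourth higher gene was PLAU, the urokinase, named after its value was seen, at 76.9 and 164.6 FPKM. HTRA1, a secreted serine protease, was lower, at 3.19 and 0.355 FPKM, and entered the test through the control library only. Structural matrix partners had 12 tested genes of 23, of which 2 were higher and 1 lower, and the median log2 ratio was 0.35. COL3A1, a fibrillar collagen, had 40.6 and 125.7 FPKM, VCAN, the proteoglycan versican, 13.9 and 28.98, and COL1A1 21.4 and 42.4. FBN2, a fibrillin, had 2.01 and 0.0687 FPKM and also entered the test through the control library only.

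The pathways known to drive these genes were read from lists without the members. For both lists the shares over all tested genes were 4.25% higher and 4.51% lower. The list of YAP, TEAD and SRF regulators and targets had 24 of 25 genes tested, of which 4 were higher and 1 lower. The median log2 ratio of this list was −0.03. Its largest ratios, by absolute value, were those of the tropomyosin TPM1, at 38.9 and 674 FPKM, and the angiomotin-like gene AMOTL1, at 0.0805 and 8.44. AMOTL1 reached 1 FPKM in sg1 cells only. The LIM protein gene AJUBA, at 25.2 and 7.27 FPKM, and CRIM1 came next. The fourth higher gene was VCL, named after its value was seen, at 149 and 309 FPKM. YAP1 had 47.8 and 44.0 FPKM and the TEAD targets ANKRD1 and AMOTL2 had 0.399 and 55.1 in control cells and 0.744 and 46.5 in sg1 cells, all named after their values were seen. The TGF-beta list had 15 of 20 reported genes tested, of which 1 was higher and 1 lower, and the median log2 ratio was −0.17. The ligand TGFB1 had 33.3 and 12.8 FPKM, and the coreceptor TGFBR3 5.79 and 13.7. TGFB1 was thus lower, and TGFBR3 higher, in the library in which THBS1 was higher. A link between these genes was not tested. CRIM1, TGFBI, COL1A1, COL1A2, FN1 and DCN each stand on more than 1 list.

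**Figure D4:**
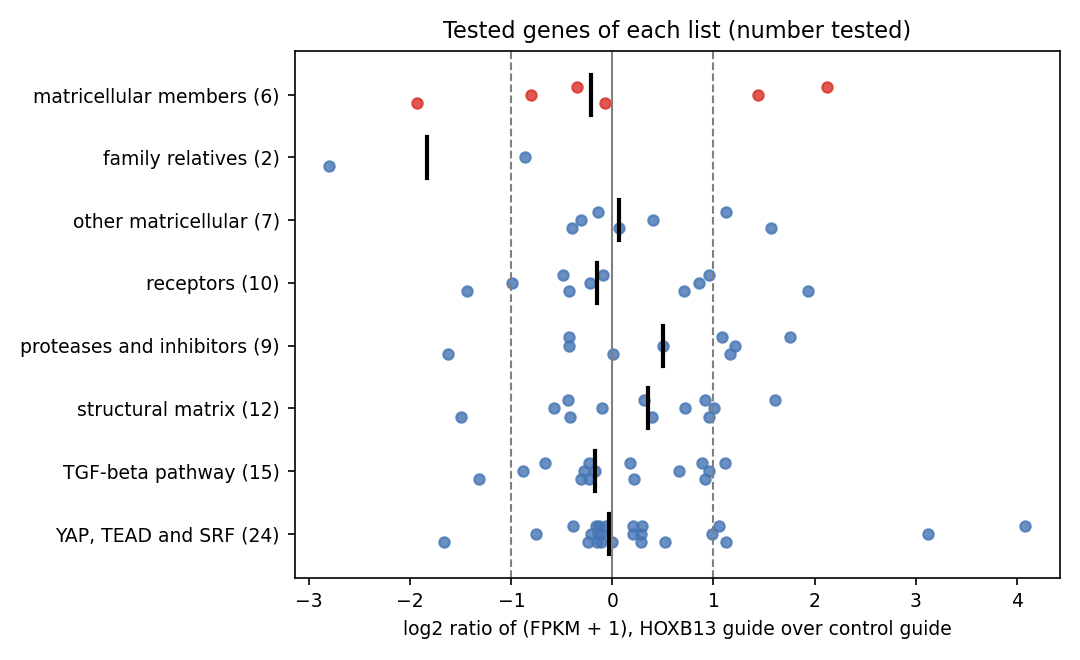
Log2 ratio of (FPKM + 1), sg1 over control library, for every tested gene of each list except those of cell type markers (points, number tested in brackets). Black bars mark the median of each list shown and dashed lines 2-fold. Points are spread vertically for legibility only. The 6 matricellular genes range from −1.93 for SPP1 to 2.13 for THBS1, and the family relatives lie below 0.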

How the data were processed

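RNA was measured in 1 G401 library per group, and groups came from the sample titles. The authors deposited 1 table of FPKM per library, without read counts, and Bowtie, TopHat and Cufflinks with hg19 are named in the submitters' processing notes. The sources used here give no versions, settings or strand mode. Per the labels' protocols, ribosomal RNA was removed before library preparation for Ion sequencing. Values of 0.001, the lowest in the deposited tables, were taken as 0, failed estimates were left out, and rows that share a symbol were summed. The members and gene lists were chosen with earlier results of these data known. All 10 members were described. From the lists 1 gene is not reported here and was left out of their counts. From each of 12 lists, up to 4 tested genes with the largest absolute ratio were named, with the 3 genes nearest to each member past 2-fold. Positions are hg19, counted from 1.

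Depth was estimated from 2944 genes under 0.5 FPKM in both libraries, of which 50.1% had a ratio that matched whole numbers up to 12 within a relative tolerance of 0.0001, once a ratio of 1.02 was set to equal reads. Among 314 such genes with 1 coding transcript in GENCODE 29, which is on another build and was used for lengths only, 96 shared 1 depth when 211 nt were subtracted from the length, a value chosen for the most genes in accord. Since the other genes gave no whole reads, count tests were left out. Read numbers of members used the longest coding transcript and are approximate, and intervals are exact binomial ones that cover counting error only. Alternatives covered the pseudocount, 4 scalings, shared symbols, the filter and the fold. The ratio procedure was tested on simulated data. Python 3.11.15 was used with scipy 1.17.1 and pandas 2.3.3, and figures were drawn with matplotlib 3.10.9.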

Additional observations from a re-analysis of the deposited data

How the results depend on the processing

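The 6 ratios of tested members kept their direction and their side of 2-fold under a pseudocount of 0.1 FPKM and the 4 scalings. The highest row per symbol, also among the 36 values compared, could not change them, since each member is on 1 row. The log2 ratios ran from −1.95 to −1.86 for SPP1, from 1.42 to 1.54 for SPARC and from 2.12 to 3.21 for THBS1. For THBS3 they ran from −0.83 to −0.74 and for CYR61 from −0.37 to −0.28. Those of CTGF ran from −0.096 to −0.007, so its direction was kept only by a small margin. At 1.5-fold 2 members were lower, SPP1 and THBS3, and at 4-fold 1 was higher, THBS1, and 0 were lower. Among all tested genes 1413 were higher and 1680 lower at 1.5-fold, 118 and 84 at 4-fold, and 731 and 849 at 2-fold with the pseudocount of 0.1 FPKM, against 509 higher and 540 lower at 2-fold as reported. No paired analysis was possible because each group had 1 library. Depth limits what can be said of TNC, POSTN and SPOCK1, whose counting intervals include equal levels. The interval of THBS2 does not include them, but the gene lies under the filter. Like every member, these genes lack replicates.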

Other observations

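Genes within 300 kb of the members past 2-fold were read from the loci in the tables, a comparison added after the values were seen. Around SPP1, all 3 tested neighbours had ratios below 0. The efflux transporter gene ABCG2, 107 kb away, had 114.5 FPKM in control cells and 36.7 in sg1 cells (log2 ratio −1.61), PKD2, the polycystin gene 24.2 kb away, had 23.7 and 13.1, and the phosphatase gene PPM1K had 3.96 and 2.51. Over all tested genes 54.4% had ratios below 0. The bone matrix genes IBSP and MEPE of the same cluster were at 0 in both libraries. Next to THBS1, the receptor gene GPR176, 202 kb away, had 0.263 FPKM in control cells and 3.02 in sg1 cells (log2 ratio 1.67). GPR176 reached 1 FPKM in sg1 cells only, so it entered the test through the library where it was high. FSIP1, 2.56 kb from THBS1, had 0.255 and 0.733 FPKM. Of the 3 tested neighbours of SPARC none reached 2-fold. No locus in the tables overlapped that of a member.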
